A study of Mus musculus with 6 samples.

Results

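Ciliated cells of the neonatal mouse lung were taken as the 894 cells that the authors labelled as such, among 61839 cells of 34 types (1.45%). The cells came from 36 C57BL/6 pups that were randomised on the day of birth and kept in room air (21% O2, normoxia) or in 85% O2 (hyperoxia) until harvest at postnatal day 3, 7 or 14 (P3, P7, P14), with 6 mice in each of 6 groups. Both sexes were represented in the study, unequally at P3 and P7, and sex was not part of the tests. Whole perfused lungs were dissociated, so the large and small airways cannot be told apart, and nursing dams were moved between the oxygen levels. RNA of single cells was read with droplets, in which a unique molecular identifier (UMI) tags each captured transcript. Lungs were multiplexed by MULTI-seq sample barcodes in 5 pools read as 6 libraries, and each pool held as many normoxic as hyperoxic mice of an age.

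Ciliated cells line the conducting airways, and each carries a tuft of motile cilia whose beat moves mucus towards the throat. A motile cilium grows from a basal body around a core of microtubules, the axoneme, which bends when outer and inner dynein arms slide its doublets under the control of radial spokes and a central pair, while intraflagellar transport carries parts to the tip. The transcription factor *Foxj1*, together with Rfx factors that bind a promoter element called the X-box, switches on the genes for these parts, and many ciliated cells arise from club cells, the secretory cells that make *Scgb1a1*.

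The 4 markers of ciliated cells used here had little RNA elsewhere. The authors named their clusters by marker RNA of these same cells, so the values describe the label and are no independent check. CPM here means a gene's UMIs per 1000000 UMIs of the cells summed, and for single mice the total was scaled by TMM. In the sum of all ciliated cells, *Foxj1* reached 321 CPM and had a UMI in 89.3% of cells, against 7.67 CPM and 8.57% of cells in club cells, the next type. *Ccdc153* reached 520 CPM, *Tmem212* reached 808 and *Dynlrb2*, a dynein light chain, reached 736, and the highest of the other 33 types stood at 8.72, 7.59 and 11.2 CPM. A UMI of at least 1 of the 4 genes was found in 97.8% of ciliated cells, and 20 cells had none. The basal cell keratin *Krt5* was near 0, at 0.214 CPM.

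The promoters of *Ccdc153*, *Dynlrb2* and *Tmem212* are printed because these genes mark ciliated cells in the results below. Whether the X-box has a part in any change of expression was not tested. Each sequence runs 5′ to 3′ from 250 bases before to 50 bases after the annotated start (RefSeq, GRCm38.p6), and capitals mark the X-box core GTTGCC, searched on both strands.
*Ccdc153*, chr9:44240427-44240726, plus strand: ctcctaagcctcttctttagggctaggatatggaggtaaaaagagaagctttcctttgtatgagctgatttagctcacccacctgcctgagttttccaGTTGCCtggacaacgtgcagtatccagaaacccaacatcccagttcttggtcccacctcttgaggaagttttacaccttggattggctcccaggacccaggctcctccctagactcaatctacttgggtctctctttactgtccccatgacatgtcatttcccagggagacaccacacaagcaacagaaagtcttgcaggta
*Dynlrb2*, chr8:116504765-116505064, plus strand: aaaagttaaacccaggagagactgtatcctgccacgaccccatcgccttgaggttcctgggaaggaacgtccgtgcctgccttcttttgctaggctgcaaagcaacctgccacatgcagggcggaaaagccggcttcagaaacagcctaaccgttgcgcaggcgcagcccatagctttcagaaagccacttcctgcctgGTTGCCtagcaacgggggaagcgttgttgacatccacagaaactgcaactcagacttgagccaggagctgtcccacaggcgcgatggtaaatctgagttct
*Tmem212*, chr3:27896319-27896618, minus strand: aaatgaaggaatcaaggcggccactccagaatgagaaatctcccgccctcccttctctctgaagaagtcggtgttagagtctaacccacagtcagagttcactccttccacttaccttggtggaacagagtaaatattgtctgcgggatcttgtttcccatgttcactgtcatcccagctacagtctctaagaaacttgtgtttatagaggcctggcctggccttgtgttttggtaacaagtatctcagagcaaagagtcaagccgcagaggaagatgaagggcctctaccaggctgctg
The core lay 152 bases before the start of *Ccdc153* and 51 bases before that of *Dynlrb2*, and these letters were not in the window of *Tmem212*. Of 190 promoters of 167 cilia genes, 79 held the core (41.6%), against 4111 of all 32851 promoters (12.5%) and 14.6% of the 7536 promoters of genes tested in ciliated cells. The forkhead motif GTAAACA was in 3.68%, 3.65% and 2.60%. The window of *Sod2*, which is no cilia gene, also held the core. A match describes letters and not binding.

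The ciliated cells fell into cells with little and cells with much *Scgb1a1*, the leading club cell product. The 585 cells with under 1% of their UMIs on *Scgb1a1* (65.4%) had a median of 7874 UMIs per cell, and the 248 cells with 10% or more (27.7%) had 41756. Club cells had 24406. The *Scgb1a1*-rich cells kept the cilia genes, a list of 199 axonemal, transport and basal body genes that leaves out members also high in other lung cells: their median was 499.5 cilia-gene UMIs per cell, against 318 in *Scgb1a1*-low cells and 33 in club cells. As a share, this was 133 per 10000 UMIs in *Scgb1a1*-rich cells, 428 in *Scgb1a1*-low cells and 14 in club cells, and a marker UMI was found in 95.2% of the *Scgb1a1*-rich cells. The thresholds were set after the data were seen, and they cut a range: 69 cells lay between 0.5% and 1%, and 25 between 1% and 2%.

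**Figure D1:**
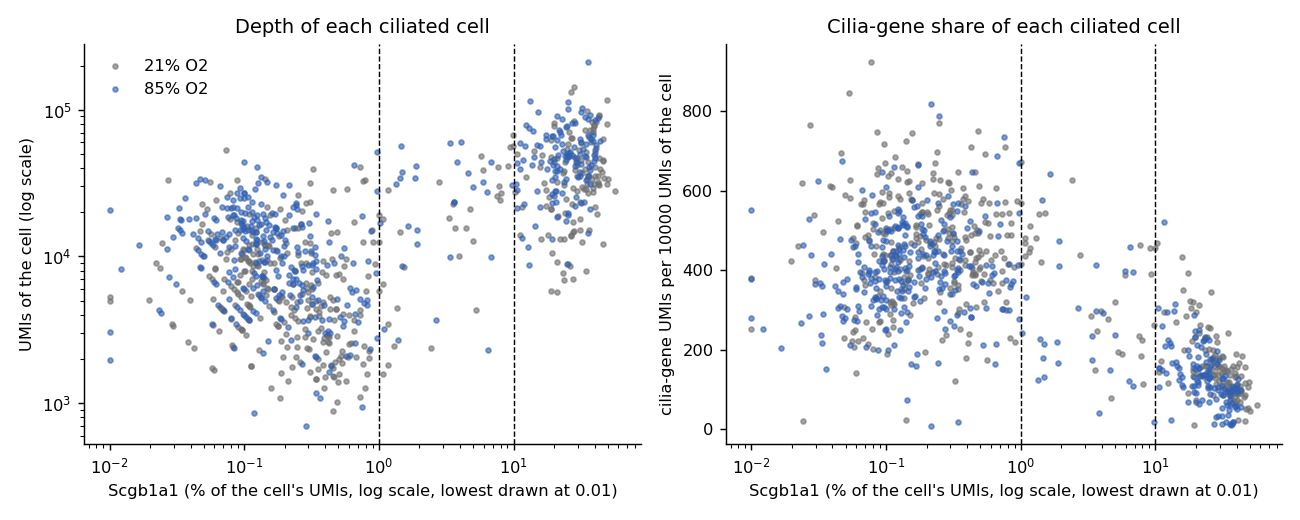
Each point is 1 ciliated cell, placed by the percent of its UMIs on *Scgb1a1* (log scale, dashed lines at 1% and 10%), with its UMIs on a log scale on the left and its cilia-gene UMIs per 10000 UMIs on the right. Cells with 10% or more *Scgb1a1* have more UMIs and a lower cilia-gene share than cells under 1%, and both oxygen levels occur in each range.

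The secretory genes in the *Scgb1a1*-rich cells went beyond *Scgb1a1*. *Scgb3a2*, another secretoglobin, reached 27529 CPM there and 706 in *Scgb1a1*-low cells, and *Cyp2f2*, a club cell cytochrome, reached 2762 and 553. *Reg3g*, an antimicrobial lectin chosen after its values were seen, stood at 321 and 6.38 CPM. As a share of UMIs, *Nos2*, the inducible nitric oxide synthase, was arranged the other way. It stood at 90.8 CPM in *Scgb1a1*-low cells, 20.8 in *Scgb1a1*-rich cells and 0.451 in club cells. A *Nos2* UMI was found in 35.7% of *Scgb1a1*-low and 31.9% of *Scgb1a1*-rich cells, which had more UMIs per cell. No doublet caller was run. Cells with barcodes of several mice had been removed by the authors, and a ciliated and a club cell of the same mouse caught together would remain. The most abundant sample barcode held a median of 67.9% of barcode UMIs in *Scgb1a1*-rich and 50.8% in *Scgb1a1*-low cells. Because the *Scgb1a1*-rich share varied between mice, each result on expression was also computed from *Scgb1a1*-low cells, an alternative chosen after the data were seen that left 28 mice and 4690 genes.

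Nearly every mouse gave enough ciliated cells. Over the 3 ages 387, 234 and 273 ciliated cells were available, with 699 to 211172 UMIs per cell and a median of 12611 (4462 over all cells of the lung). The 34 mice with at least 10 ciliated cells entered the tests of expression, which left out P7 normoxic mouse 5 with 9 cells and P7 hyperoxic mouse 5 with 2. Among all cells, 390 cell barcodes occurred in 2 libraries and 4 in 3 libraries, and no barcode was shared by ciliated cells. The P14 mice had pools to themselves, so age and pool cannot be told apart for P14 against P3 or P7.

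Ciliated cells were a small share of the lung in each group, and no difference in that share passed correction when mice of all pools were compared. They made up 0.827% to 6.17% of the cells of normoxic P3 mice (median 1.63%) and 0.557% to 3.14% (median 2.44%) in hyperoxia. At P7 the shares were 0.711% to 2.39% (median 1.05%) in normoxia and 1.09% to 1.60% (median 1.37%) in hyperoxia, and at P14 they were 0.659% to 1.75% (median 1.06%) and 0.945% to 2.08% (median 1.35%). The groups overlapped at every age. By two-sided exact permutation tests over the 924 assignments of 6 against 6 mice, the 9 comparisons of oxygen and age had adjusted p-values of 0.514 or more. At P14 the mean was 1.47% ± 0.448 (SD, n = 6) in hyperoxia and 1.16% ± 0.433 in normoxia (exact p = 0.245). The largest difference was between P14 and P3 in normoxia, by −1.27 percentage points (exact p = 0.132). P3 mice of the pool shared with P7 had a median of 3.04% and P3 mice of the other pool 1.02%, so the spread at P3 went with the pool. Within the pool that held both ages, the 3 hyperoxic P3 mice were at 2.92%, 3.02% and 3.14%, above the 3 hyperoxic P7 mice at 1.27%, 1.44% and 1.46% (exact p = 0.10, the smallest that 3 against 3 mice allow). The normoxic difference there was −2.02 percentage points (exact p = 0.20). P14 mice shared no pool with the other ages, so age and pool cannot be told apart in comparisons with P14.

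**Figure D2:**
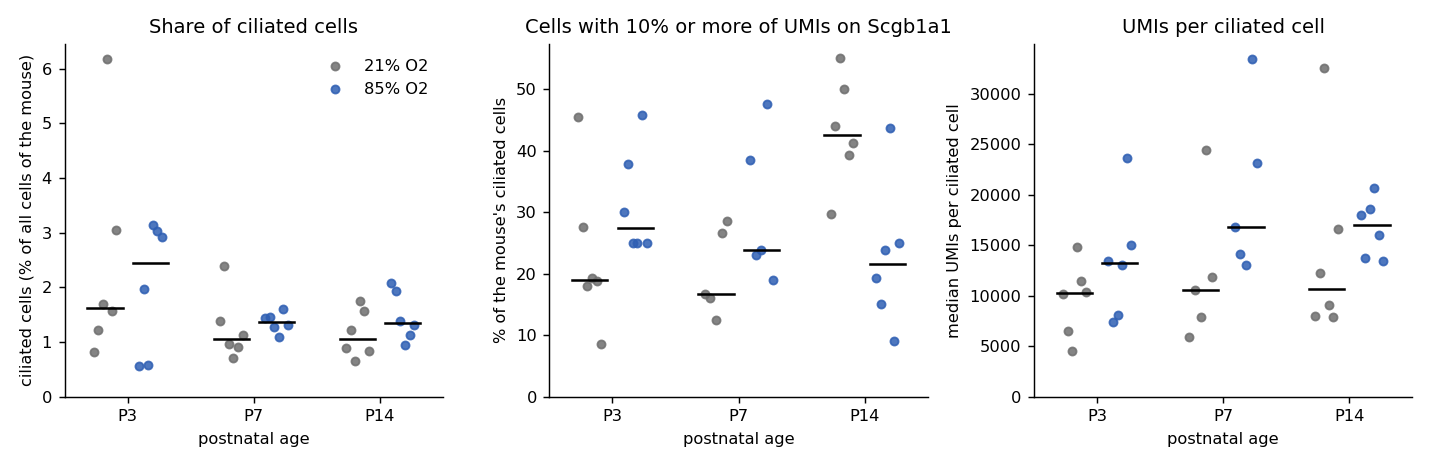
Each point is 1 mouse and each black line a group median, by postnatal age and oxygen level, for the percent of cells that are ciliated, the percent of ciliated cells with 10% or more of UMIs on *Scgb1a1*, and the median UMIs per ciliated cell (the last for mice with at least 10 ciliated cells, as is the second). The ciliated shares overlap at each age, and the *Scgb1a1*-rich share is highest in normoxic P14 mice, from 29.6% to 55%.

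The *Scgb1a1*-rich share of the ciliated cells varied between mice. It was 8.57% to 45.5% (median 19%) in normoxic and 25.0% to 45.7% (median 27.5%) in hyperoxic P3 mice. At P7 the medians were 16.7% and 23.8%. At P14 the order turned, with 29.6% to 55% (median 42.6%) in normoxia and 9.09% to 43.8% (median 21.6%) in hyperoxia. These are ranges of a class chosen on the data and were not tested. The median UMIs per ciliated cell ranged from 4542 to 33458 between mice, and the exact p-values for oxygen were 0.214 at P3, 0.151 at P7 and 0.636 at P14. Within pools the exact p-values were 0.095, 0.0333 and 0.64, and the adjusted p at P7 was 0.10; the mean UMIs per cell at P7 gave an exact p of 0.0317 (adjusted p = 0.0952). In *Scgb1a1*-low cells at P14, the mouse medians were 8896 to 16636 UMIs in 5 hyperoxic mice and 3200 to 6000 in 4 normoxic mice, which did not overlap.

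Hyperoxia changed the RNA of ciliated cells at every age. For these tests UMIs were summed per mouse, and a changed gene had both an adjusted p under 0.05 (edgeR quasi-likelihood test, Benjamini-Hochberg) and UMIs in no fewer than 10% of ciliated cells of 1 of the groups compared. With age as a covariate, 1281 of 7379 tested genes changed (17.4%), of which 646 were higher (8.75%) and 635 lower (8.61%). From *Scgb1a1*-low cells, 548 of 4690 genes changed (11.7%). Of the 646 higher genes, 533 could be tested there and 531 had the same direction, with 248 changed in both; of the 635 lower genes, 501 could be tested and all 501 kept their direction, with 221 changed in both. The *Scgb1a1*-low cells are a part of the cells summed here, from the same mice, so a shared direction is no independent replication. The median log2 fold change over all tested genes was −0.02 in all ciliated cells.

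The master regulator and part of the motile apparatus were lower in hyperoxia. *Foxj1* was measured at 324 to 408 CPM (median 390) in normoxic and 210 to 322 (median 268) in hyperoxic P3 mice. At P7 it stood at 345, 409, 408, 339 and 333 in the 5 normoxic mice (mice 1 to 4 and 6, the order used below for both oxygen levels) and at 284, 248, 207, 257 and 269 in the 5 hyperoxic mice. At P14 it was 262 to 431 (median 389) in normoxia and 279 to 415 (median 326) in hyperoxia. Each hyperoxic mouse lay below each normoxic mouse at P3 and P7, and the groups overlapped at P14. Over all ages the log2 fold change was −0.37 ± 0.08 (SE, adjusted p = 0.00095), and −0.32 (adjusted p = 0.013) in *Scgb1a1*-low cells. By age it fell by 0.50 ± 0.13 at P3 (adjusted p = 0.038) and by 0.54 ± 0.14 at P7 (adjusted p = 0.014) and was at −0.11 ± 0.13 at P14 (adjusted p = 0.64). At none of the 3 ages did it pass in *Scgb1a1*-low cells (−0.28, −0.34 and −0.34, adjusted p = 0.71, 0.24 and 0.19). *Ccdc153* fell by 0.52 ± 0.12 on the log2 scale (adjusted p = 0.0016), while *Tmem212* (0.18 ± 0.11, adjusted p = 0.28) and *Dynlrb2* (−0.27 ± 0.11, adjusted p = 0.093) did not pass. Of 9 tested transcription factors of ciliated cells 4 fell, beside 8.61% of all genes, and 2 of 8 fell in *Scgb1a1*-low cells. Among the 4 were *Nkx2-1*, a lung lineage factor, lower by 0.50 ± 0.09 (adjusted p = 0.00014), and *Trp73*, an activator of multiciliated cells, by 0.50 ± 0.16 (adjusted p = 0.022).

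Of the 181 tested cilia genes, 45 fell and 2 rose over all ages, beside 8.61% and 8.75% of all genes. Their median log2 fold change was −0.22. Among *Scgb1a1*-low cells 21 of 168 fell and none rose (median −0.21). The inner dynein arm list had the most members that fell, 11 of 22, with a median of −0.39 on the log2 scale. *Dnah12*, an inner arm heavy chain, fell by 0.43 ± 0.09 (adjusted p = 0.00029), and *Ccdc39*, which sets the spacing of inner arms along the doublet, fell by 0.48 ± 0.13 (adjusted p = 0.0071). In the outer arm 3 of 14 members fell, among them *Ttc25*, which helps to dock the outer arm, by 0.94 ± 0.17 (adjusted p = 8.2e-05). Of 15 factors that assemble dynein arms in the cytoplasm 5 fell, such as *Ccdc103* by 0.74 ± 0.18 (adjusted p = 0.0028). *Ttc25* and *Ccdc103* also fell in *Scgb1a1*-low cells, whereas *Ccdc39* (−0.36, adjusted p = 0.12) and *Dnah12* (−0.39, adjusted p = 0.058) did not pass there.

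Of 37 tested genes on a list of other airway cilia genes 9 fell and 1 rose (median −0.18). In the cilia groups below, smaller shares fell, beside 8.61% of all genes. Radial spoke and central pair genes fell in 4 of 23 cases, with *Spef2*, a central pair protein, lower by 0.46 ± 0.11 (adjusted p = 0.0024). Of 31 tubulins, tektins and proteins inside the microtubules 5 fell, with *Tekt2* lower by 0.71 ± 0.16 (adjusted p = 0.0014), and the tubulin *Tubb4b* stood at 0.10 ± 0.11 (adjusted p = 0.60). Intraflagellar transport had the cilia list median closest to 0, −0.12. Of its 29 tested members 4 fell (13.8%), such as *Ift88* by 0.28 ± 0.09 (adjusted p = 0.025). In the BBSome and the transition zone, which gate the ciliary base, 4 of 25 fell and 1 rose: *Ttc8*, a BBSome subunit, fell by 0.55 ± 0.12 (adjusted p = 0.00082) and *Bbip1*, another subunit, rose by 0.45 ± 0.11 (adjusted p = 0.0034). *Sntn*, which encodes the ciliary tip protein sentan, was the other cilia gene that rose, by 0.54 ± 0.13 (adjusted p = 0.0027). No transport gene fell in *Scgb1a1*-low cells, where 0 of 28 passed and *Ift88* had an adjusted p of 0.34.

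By age, most cilia genes that passed as lower did so at P7. At P3 no gene of the cilia list, which does not hold *Foxj1*, passed (0 of 181, median −0.31, 166 below 0). Of all genes, 0.42% fell and 1.61% changed there, and with the pool as a block 7 cilia genes fell. At P7 55 of 181 fell and none rose (30.4%, median −0.55), while 6.86% of all genes changed and 3.46% fell. At P14 none fell and 9 rose (median 0.13), while 5.11% of all genes rose and 4.76% fell. In *Scgb1a1*-low cells the 3 medians were −0.10, −0.39 and −0.09, with 0, 14 and 1 genes that fell, so that the sign of the P14 median differed between the cell sets. The effect at P14 minus that at P3 had a median of 0.46 over the cilia genes (169 of 181 above 0) and of 0.07 in *Scgb1a1*-low cells (95 of 168 above 0), and no gene of the list passed that test (edgeR, 0 of 181; 4 passed by DESeq2). *Efcab1*, a dynein arm gene outside the list, did pass (1.13, adjusted p = 0.033; 0.57 in *Scgb1a1*-low cells, adjusted p = 0.48). The effect at P7 was not compared with that at P3 or P14 by a test. The P7 count rested on few mice: without normoxic mouse 3 it was 16, without normoxic mouse 2 it was 24, and without hyperoxic mouse 1, 4 or 2 it was 27, 31 or 35.

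**Figure D3:**
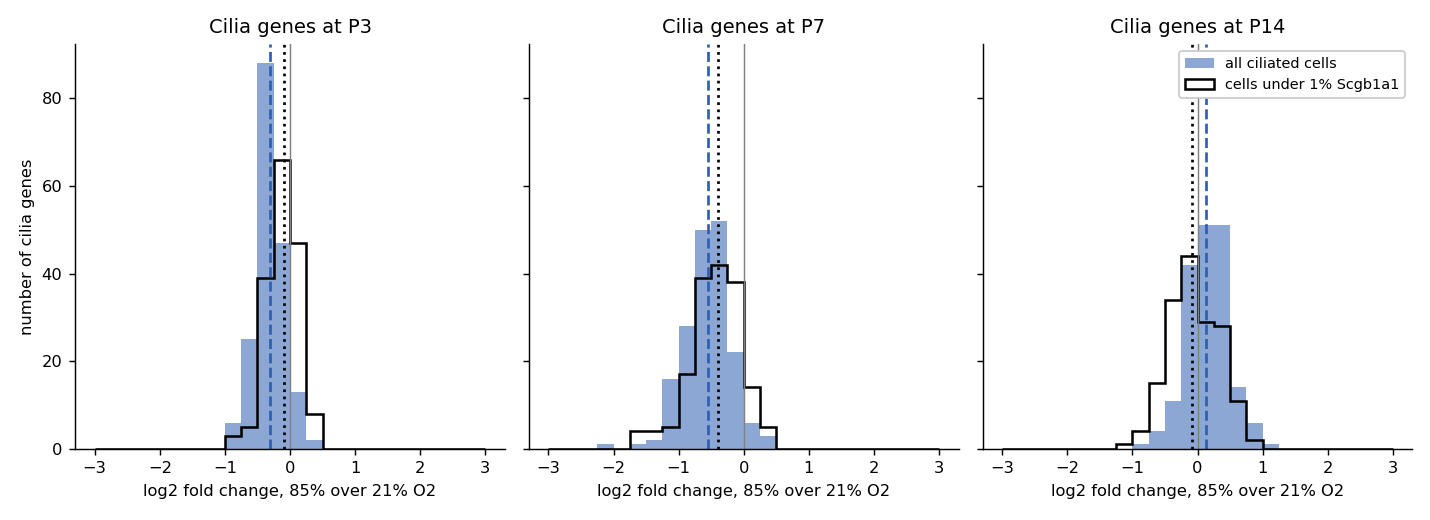
Histograms of the log2 fold change of hyperoxia over normoxia for the tested cilia genes at each age, in all ciliated cells (blue, 181 genes) and in cells under 1% *Scgb1a1* (black outline, 168 genes), with medians as dashed and dotted lines. The P7 distributions lie below 0 in both sets of cells (medians −0.55 and −0.39), and at P14 the medians are 0.13 and −0.09.

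At P7 the inner arm list again had the most members that fell, with 11 of 22 lower (median −0.75), beside 3.46% of all genes. In *Scgb1a1*-low cells 6 of 21 were lower (median −0.74), where 2.73% of all genes changed in either direction. *Ttc25* stood at 70.2, 99.3, 156, 94.7 and 106 CPM in the 5 normoxic mice and at 38.5, 31.0, 36.3, 33.1 and 43.8 in the 5 hyperoxic mice, without overlap, and fell by 1.53 ± 0.29 on the log2 scale (adjusted p = 0.00089). The cilia-associated *Ccdc146* fell by 1.22 ± 0.23 (adjusted p = 0.00083) and *Ak7*, an adenylate kinase of cilia, by 0.99 ± 0.24 (adjusted p = 0.0073). The gene *4933434E20Rik* was lower in each hyperoxic than in each normoxic P7 mouse, with 404, 536, 916, 485 and 483 CPM in normoxia and 138, 119, 109, 121 and 143 in hyperoxia. It fell by 2.16 ± 0.25 (adjusted p = 1.1e-06) and had a log2 fold change of −2.14 in *Scgb1a1*-low cells (adjusted p = 4.9e-05). All 4 genes passed in *Scgb1a1*-low cells as well.

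Multiciliogenesis genes mark cells that are still making basal bodies. Among ciliated cells, 303 had a UMI of *Deup1*, a deuterosome scaffold (33.9%, against at most 3.15% in another type), 161 one of *Ccno* (18%, against 16.5% of the neutrophil type Neut 2) and 51 one of *Mcidas* (5.70%, and 2.99% of club cells). At P7 *Deup1* stood at 36.5, 184, 316, 111 and 9.66 CPM in normoxic and at 32.8, 19.6, 46.9, 50.4 and 13.5 in hyperoxic mice. Normoxic mice 2, 3 and 4 were high and the other two lay within or below the hyperoxic range. The fitted change was −2.12 ± 0.50 on the log2 scale (adjusted p = 0.0068). Of the list 3 of 10 members fell (median −1.03), beside 3.46% of all genes. In *Scgb1a1*-low cells *Deup1* missed the threshold (−2.07, adjusted p = 0.070), and 4 genes could be tested. Over all ages *Ccno* fell by 1.42 ± 0.39 (adjusted p = 0.0084), and *Hes6*, a factor of the same program, rose by 0.62 ± 0.14 (adjusted p = 0.0015). In *Scgb1a1*-low cells 4 members of the list could be tested over all ages, of which 1 rose and none fell.

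After thinning to 1000 UMIs, 42.0% of 890 ciliated cells had a UMI of the multiciliogenesis list, against 6.07% of 494 club cells with median depths of 12611 and 24406 UMIs. Without thinning the shares were 95.4% and 73.3%. Group means of the thinned share over mice were between 40.2% and 46.7%, and all 9 comparisons of oxygen and age had an adjusted p of 0.970 by exact permutation tests.

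Hyperoxia raised antioxidant genes in ciliated cells. The NRF2 list holds targets of the transcription factor that answers oxidants. Over all ages 22 of 34 tested members were higher and none lower (median 0.67), beside 8.75% of all genes that rose. In *Scgb1a1*-low cells 17 of 26 were higher (median 0.69). *Cbr3*, a carbonyl reductase, was at 36.4 to 77.0 CPM (median 61.7) in normoxic and 153 to 214 (median 184) in hyperoxic P3 mice. At P7 it was at 53.4, 82.3, 24.8, 76.2 and 77.3 in normoxia and at 212, 310, 169, 293 and 184 in hyperoxia, and at P14 at 66.6 to 93.1 (median 80.7) and 112 to 323 (median 139). No hyperoxic mouse overlapped with the normoxic mice of its age, in all cells or in *Scgb1a1*-low cells. Over all ages *Cbr3* rose by 1.49 ± 0.14 on the log2 scale (adjusted p = 6.4e-10). *Gclm*, which limits glutathione synthesis, rose by 0.82 ± 0.07 (adjusted p = 8.5e-11), *Srxn1*, which restores peroxiredoxins, by 1.57 ± 0.19 (adjusted p = 5.7e-08) and the ferritin light chain *Ftl1* by 1.07 ± 0.11 (adjusted p = 6.2e-09), and each also passed in *Scgb1a1*-low cells. *Nqo1* rose by 1.52 ± 0.24 (adjusted p = 9.6e-06), but by 0.75 with an adjusted p of 0.19 in *Scgb1a1*-low cells. Reads of *Ftl1* can be shared with its processed copies, so its level is uncertain.

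By age, 17 members of the NRF2 list rose at P3 (median 0.88), 22 at P7 (median 0.87) and 8 at P14 (median 0.25), beside 1.19%, 3.4% and 5.11% of all genes. The counts from *Scgb1a1*-low cells were 1, 13 and 3 of 26 (medians 0.62, 1.12 and 0.22). In normoxic cells 10 of 34 were higher at P14 than at P3, beside 2.87% of all genes. In *Scgb1a1*-low cells 4 of 26 were higher, where 1.02% of all genes changed in either direction. Age and pool cannot be told apart in this comparison. *Gclc*, the catalytic partner of *Gclm*, had normoxic medians of 151 CPM at P3 and 336 at P14, and hyperoxic medians of 465 and 413. The effect at P14 minus that at P3 had a median of −0.62 over the list (30 of 34 below 0). It passed for 1 of the 34 members, beside 0.447% of all genes. This was *Aox1*, an aldehyde oxidase (−2.27 ± 0.51, adjusted p = 0.031), which could not be tested in *Scgb1a1*-low cells. There the median was −0.33 (18 of 26 below 0), and 1 of 26 passed, beside 0.171% of all genes.

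**Figure D4:**
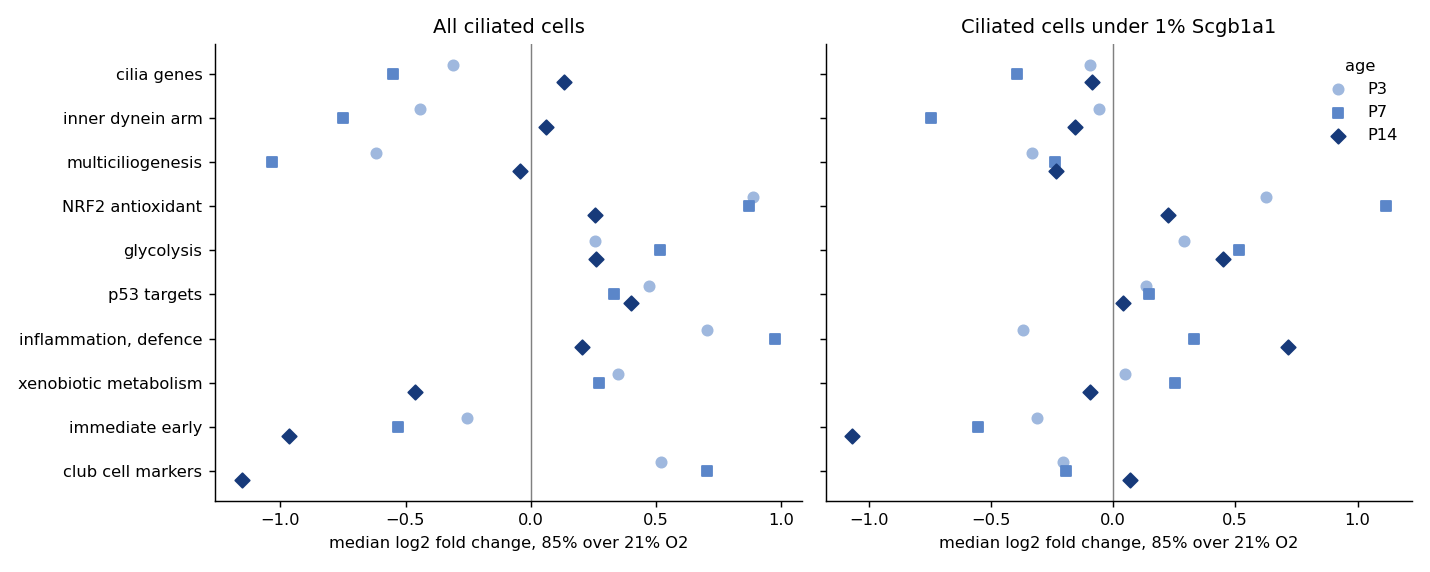
Median log2 fold change of hyperoxia over normoxia for gene lists at P3, P7 and P14, in all ciliated cells on the left and in cells under 1% *Scgb1a1* on the right. The NRF2 list is at 0.88, 0.87 and 0.25 on the left and the immediate early list at −0.26, −0.53 and −0.97.

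Genes of superoxide and peroxide handling rose in 6 of 14 cases and fell in 1, beside 8.75% and 8.61% of all genes. *Sod2* and *Nos2* were chosen because earlier results of these data had them highest in ciliated cells. *Sod2*, the mitochondrial superoxide dismutase, was at 314 to 442 CPM (median 405) in normoxic and 475 to 795 (median 564) in hyperoxic P3 mice. At P7 it was at 343, 332, 399, 515 and 517 and at 567, 548, 589, 549 and 578, and at P14 at 359 to 458 (median 389) and 462 to 608 (median 559). Hyperoxic mice were above normoxic mice at each age, and in *Scgb1a1*-low cells at P14 alone. *Sod2* rose by 0.50 ± 0.08 (adjusted p = 8.2e-06), and by 0.55 in *Scgb1a1*-low cells (adjusted p = 0.0007). Its level over all ciliated cells was 466 CPM, against 288 in club cells. *Gpx4*, which reduces lipid peroxides, rose by 0.66 ± 0.07 (adjusted p = 3.5e-09). *Cat*, the peroxisomal catalase, fell at P14 by 0.61 ± 0.17 (adjusted p = 0.014) and by 0.80 in *Scgb1a1*-low cells (adjusted p = 0.041). *Nupr1*, a stress-induced chromatin protein, was at 333 to 551 CPM in normoxic and 1359 to 3321 in hyperoxic P7 mice and rose by 1.55 ± 0.15 over all ages (adjusted p = 1.2e-09), without overlap at any age (in *Scgb1a1*-low cells at P7 alone). Of the heat shock genes, *Hspa1a* fell by 1.09 ± 0.29 (adjusted p = 0.0067) and the mitochondrial *Hspe1* rose by 0.80 ± 0.11 (adjusted p = 6.2e-07); reads of *Hspa1a* can be shared with its near-identical neighbour.

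*Nos2* was lower in hyperoxia. Its normoxic level was 34.6 to 123 CPM (median 62.4) at P14, and its hyperoxic level was 3.41 to 19.9 (median 11). At P7 it stood at 53.4, 62.4, 47.4, 53.1 and 135 in normoxia and at 28.5, 34.2, 27.7, 31.5 and 30.3 in hyperoxia, and at P3 at 27.6 to 91.9 (median 71.1) and 0 to 65.4 (median 30.6). The groups were apart at P7 and P14 and overlapped at P3. It fell by 1.39 ± 0.23 over all ages (adjusted p = 2e-05) and by 2.67 ± 0.39 at P14 (adjusted p = 1.4e-05), with −2.82 in *Scgb1a1*-low cells (adjusted p = 2.4e-05). At P3 (−0.84, adjusted p = 0.19) and P7 (−1.09, adjusted p = 0.054) it did not pass. Outside ciliated cells *Nos2* was highest in Cap-a cells, a capillary endothelial type, with 39.8 CPM and a UMI in 13.7% of cells, against 45.0 and 34.1% in ciliated cells.

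Immediate early genes, which respond within minutes to stimuli that include tissue dissociation, were lower in hyperoxia. Over all ages 17 of 18 fell and none rose (median −0.56), beside 8.61% of all genes that fell. In *Scgb1a1*-low cells 14 of 18 fell (median −0.66). The counts were 1 at P3, 5 at P7 and 17 at P14 (medians −0.26, −0.53 and −0.97), while 0.42%, 3.46% and 4.76% of all genes fell. *Scgb1a1*-low cells gave 0, 2 and 12, where 0.064%, 2.73% and 6.06% of all genes changed in either direction. *Fos* fell by 0.62 ± 0.11 over all ages (adjusted p = 4e-05) and *Nr4a1* by 0.89 ± 0.15 (adjusted p = 2.5e-05). *Klf2*, a flow- and stress-responsive factor, was at 235 to 576 CPM (median 371) in normoxic and 61.9 to 116 (median 89.3) in hyperoxic P14 mice. These P14 ranges did not overlap, and the change was −2.09 ± 0.20 (adjusted p = 5.2e-09). Hyperoxic and normoxic lungs were sequenced in the same pools, and the part of tissue handling in these genes was not tested.

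Metabolic and growth genes also changed. Of 19 glycolysis genes 9 rose over all ages and none fell (median 0.40), beside 8.75% of all genes that rose and 8.61% that fell. In *Scgb1a1*-low cells 8 of 16 rose. *Pgk1* was higher by 0.74 ± 0.10 (adjusted p = 1.6e-06) and *Pfkp* by 1.11 ± 0.17 (adjusted p = 9.2e-06). Of 13 mitochondrially encoded RNAs 9 rose (median 0.34; 5 of 13 in *Scgb1a1*-low cells), such as *mt-Nd2* by 0.52 ± 0.08 (adjusted p = 1.6e-05). The median percent of UMIs on mitochondrial genes per ciliated cell was 5.40 to 10.9 in normoxic and 9.05 to 11.9 in hyperoxic P14 mice. In *Scgb1a1*-low cells the P14 ranges were 6.83 to 12.1 and 9.05 to 12.7, and the mice overlapped in both cell sets. *Txnip*, which restrains glucose uptake and thioredoxin, fell by 1.51 ± 0.12 (adjusted p = 7.2e-12). It was at 473 to 808 CPM (median 639) in normoxic and 177 to 318 (median 228) in hyperoxic P3 mice. At P7 the values were 1008, 536, 458, 379 and 497 in normoxia and 181, 139, 215, 173.2 and 184 in hyperoxia. The P14 ranges were 446 to 628 and 143 to 262, so that no mouse overlapped at any age. *Cdkn1c*, an imprinted inhibitor of the cell cycle, fell by 1.16 ± 0.16 (adjusted p = 1.4e-06; −1.06 in *Scgb1a1*-low cells), and of 9 tested genes of its growth network 3 fell.

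**Figure D5:**
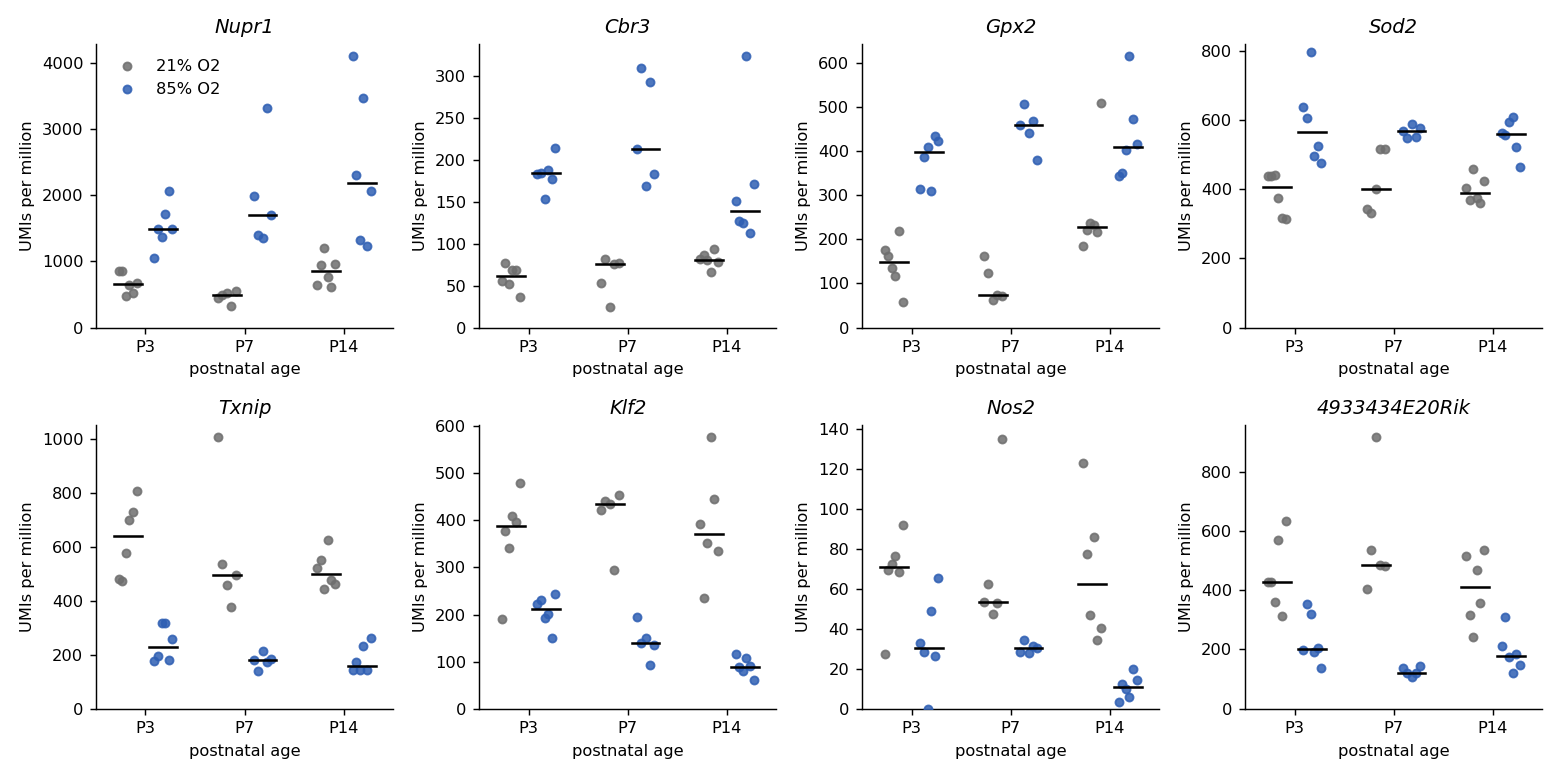
CPM of the ciliated cells of each mouse (1 point per mouse, black line the group median, axes from 0) by age and oxygen level, for 8 genes. Hyperoxic mice lie above normoxic mice of their age for *Nupr1*, *Cbr3* and *Sod2* and below them for *Txnip* at all 3 ages, and *Nos2* has medians of 62.4 and 11 at P14.

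Several other increases did not pass, or could not be tested, in *Scgb1a1*-low cells. Over all ages 8.75% of all genes rose and 8.61% fell. Of 27 inflammation and defence genes of epithelia 11 rose (median 0.64), but in *Scgb1a1*-low cells 1 of the 11 that could be tested did. *Lcn2*, a siderophore-binding defence protein, was at 146, 14.2, 6.77, 25.4 and 24.1 CPM in normoxic and at 1267, 321, 768, 464 and 173.5 in hyperoxic P7 mice. It rose by 3.15 ± 0.45 over all ages (adjusted p = 2.2e-06) and by 1.58 in *Scgb1a1*-low cells (adjusted p = 0.14), and at P14 it also passed there (4.20, adjusted p = 0.0079). *Lcn2* itself was at 412 CPM in *Scgb1a1*-rich and 103 in *Scgb1a1*-low cells. *Cxcl17*, a mucosal chemokine, rose in both (1.13 ± 0.18, adjusted p = 1.9e-05; 0.97 in *Scgb1a1*-low cells, adjusted p = 0.0031). Of 19 p53 targets 11 rose and 3 fell, while 0 of 13 rose and 3 fell in *Scgb1a1*-low cells, and *Ccng1* (1.56 ± 0.16, adjusted p = 3.6e-09) and *Gdf15* (2.16 ± 0.30, adjusted p = 1.6e-06) could not be tested there. *Cdkn1a*, a p53 target that stops the cell cycle, rose at P14 by 0.97 ± 0.15 (adjusted p = 3.2e-05) and by 0.84 in *Scgb1a1*-low cells (adjusted p = 0.020).

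Markers of other cell types were also measured in the ciliated cells. Stromal markers had a group median of 3.39 UMIs per 10000 in normoxic and 1.47 in hyperoxic P7 mice. The mice overlapped at each age. The ranges in normoxia and hyperoxia were 1.60 to 6.52 and 1.42 to 7.77 at P3. They were 1.20 to 8.29 and 0.903 to 1.89 at P7, and 1.76 to 6.12 and 1.75 to 2.40 at P14. The P7 levels of marker lists in this paragraph include normoxic mouse 5 with 9 ciliated cells and hyperoxic mouse 5 with 2. By edgeR 4 of 7 tested stromal markers fell over all ages (median −0.69), beside 8.61% of all genes. Among them was *Eln*, the elastin gene, lower by 1.12 ± 0.28 (adjusted p = 0.0037). In *Scgb1a1*-low cells 7 of 7 fell (median −1.53). Of 3 tested endothelial markers 2 fell. Alveolar type 2 markers had higher group medians in hyperoxia at each age, with overlapping mice: 37.6 UMIs per 10000 in normoxic and 52.7 in hyperoxic mice at P3, 22.7 and 56.6 at P7, and 42.9 and 82.0 at P14. In the fit 1 of 10 passed over all ages, the surfactant gene *Sftpb* (0.72 ± 0.22, adjusted p = 0.020), a share near the 8.75% of all genes that rose (median 0.24; 0 of 9 in *Scgb1a1*-low cells, median −0.20). The fitted medians at P3 differed in sign between the cell sets, at 0.04 over 10 markers in all cells and −2.18 over 9 in *Scgb1a1*-low cells, where all 9 lay below 0 and none passed. In *Scgb1a1*-low cells 8 club markers summed to 9987 CPM, of which *Cbr2* made up 4429 and *Aldh1a1* 1466. In club cells *Cbr2* was at 7195 CPM and *Aldh1a1* at 1064. In *Scgb1a1*-low cells 10 markers of alveolar type 2 cells summed to 6569 CPM. Of this the surfactant gene *Sftpc* made up 5064, with a UMI of the list in 98.6% of cells. The sums were 671 CPM for 7 alveolar type 1, 404 for 8 stromal, 447 for 9 immune and 93.8 for 5 endothelial markers. Club cell markers had a median of 3360 UMIs per 10000 (2988 to 4067) in normoxic and 1590 (906 to 3165) in hyperoxic P14 mice, and *Scgb1a1* fell there by 1.34 ± 0.35 (adjusted p = 0.0095). At P7 the medians were 1382 in normoxia and 2502 in hyperoxia, and 2 of 8 club markers rose, beside 3.4% of all genes. The part of these RNAs in the results above was not tested. In summed RNA of a cell type, more cells with a transcript and more transcript per cell cannot be told apart.

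At P3, 119 genes changed (88 higher, 31 lower; 217 with the pool as a block). *Txnrd1*, the thioredoxin reductase, rose by 1.13 ± 0.18 (adjusted p = 0.00012) and *Aldh1a1*, an aldehyde dehydrogenase, by 0.92 ± 0.14 (adjusted p = 3.4e-05), and these were the higher genes that also passed in *Scgb1a1*-low cells, where 3 genes changed (0.064%), the other being the small heat shock gene *Hspb1*, lower by 1.58. *Rhob*, a small GTPase, fell by 1.27 ± 0.23 (adjusted p = 0.00066) and *Cdkn1c* by 1.20 ± 0.28 (adjusted p = 0.013). At P7, 506 genes changed (251 higher, 255 lower), with 253 when normoxic mouse 3, 299 when normoxic mouse 2 and 327 when hyperoxic mouse 1 was left out. *Gpx2*, a glutathione peroxidase of epithelia, was at 163, 123, 63.2, 73.9 and 72.4 CPM in normoxic and at 459, 505, 442, 468 and 379 in hyperoxic P7 mice, without overlap, and rose by 2.16 ± 0.26 (adjusted p = 1.2e-06). *Pgd*, of the pentose phosphate pathway, rose by 1.51 ± 0.23 (adjusted p = 4.7e-05). In *Scgb1a1*-low cells 128 genes changed at P7 (2.73%).

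At P14, 728 genes changed (377 higher, 351 lower; 9.87%), and 284 in *Scgb1a1*-low cells (6.06%). Enzymes that metabolise foreign compounds fell in 6 of 20 cases and rose in 1 (median −0.46; 2 of 15 fell in *Scgb1a1*-low cells): *Cyp4b1*, a lung cytochrome, fell by 1.41 ± 0.18 (adjusted p = 1.1e-06) and *Cbr2*, a lung carbonyl reductase, by 0.995 ± 0.20 (adjusted p = 0.00081). *Cbr2* and *Cyp2f2*, another of the 6, are also on the list of club markers, whose summed level was lower in hyperoxic P14 mice as given above. *Plk2*, a polo-like kinase, fell by 2.05 ± 0.28 (adjusted p = 3.8e-06). *Sntn* rose by 1.07 ± 0.20 (adjusted p = 0.00026) and *Adssl1*, of purine nucleotide synthesis, by 1.90 ± 0.28 (adjusted p = 1.8e-05). *Cyp4b1*, *Cbr2*, *Plk2*, *Sntn* and *Adssl1* passed in *Scgb1a1*-low cells as well, and *Cyp2f2* did not. *Prdx6*, a peroxiredoxin, fell by 0.92 ± 0.28 (adjusted p = 0.033), but was at 0.21 in *Scgb1a1*-low cells.

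Between P14 and P3 the effect of oxygen differed for 33 genes (12 higher and 21 lower at P14; 0.447% of genes), or for 67 with the pool as a block, 65 by DESeq2 and 8 in *Scgb1a1*-low cells. *Igfbp2*, a binder of insulin-like growth factors, stood at 69.0 to 158 CPM (median 95.8) in normoxic and 95.3 to 156 (median 133) in hyperoxic P3 mice. At P14 it was at 28.2 to 63.8 (median 46.4) and 84.6 to 192 (median 161). The groups overlapped at P3 and were apart at P14, and the difference of the effects was 1.56 ± 0.31 on the log2 scale (adjusted p = 0.016; 1.34 in *Scgb1a1*-low cells, adjusted p = 0.20). The difference was −2.30 ± 0.38 for *Plk2* (adjusted p = 0.0029), −2.15 ± 0.53 for *Egr3*, an immediate early factor (adjusted p = 0.047), and −1.25 ± 0.27 for *Klf2* (adjusted p = 0.024). *Egr3* also passed in *Scgb1a1*-low cells (−3.54, adjusted p = 0.027). *Nos2* missed the threshold in all ciliated cells (−1.84 ± 0.51, adjusted p = 0.090) and passed in *Scgb1a1*-low cells (−2.68, adjusted p = 0.0046).

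In normoxia, 0 of 7379 genes passed between P7 and P3 (edgeR, 355 at an unadjusted p under 0.05; DESeq2 gave 0, and 271 unadjusted), and 9 passed without the filter on low counts. At P14, 406 genes differed from P3 (5.5%; 212 higher, 2.87%, and 194 lower, 2.63%) and 391 from P7 (5.3%; 183 higher, 2.48%, and 208 lower, 2.82%). Of 20 xenobiotic enzymes 11 were higher at P14 than at P3 and none lower (median 0.83), and 7 of 15 in *Scgb1a1*-low cells (median 0.63). *Por*, the reductase that feeds electrons to cytochromes P450, stood at 134 to 183 CPM (median 143) in normoxic P3 and 293 to 784 (median 435) in normoxic P14 mice. Each P14 mouse was above each P3 mouse, and the rise was 1.59 ± 0.23 on the log2 scale (adjusted p = 4.5e-05; 1.37 in *Scgb1a1*-low cells, adjusted p = 0.0034). *Cyp2f2* rose by 1.43 ± 0.31 (adjusted p = 0.0045), *Cat* by 0.98 ± 0.18 (adjusted p = 0.0006) and *mt-Nd2* by 0.96 ± 0.14 (adjusted p = 5.5e-05), and these passed in *Scgb1a1*-low cells as well. Of 13 mitochondrially encoded RNAs 8 were higher, and 3 in *Scgb1a1*-low cells (medians 0.68 and 0.62).

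Cilia genes were lower at P14 in the sum of all ciliated cells: 40 of 181 against P3 (median −0.43) and 42 against P7 (median −0.50), with none higher. In *Scgb1a1*-low cells 0 of 168 passed in either comparison by edgeR (medians −0.18 and −0.20), where 48 and 0 genes of all 4690 changed. The tubulin and tektin list had the most lower members against P3, 12 of 31, such as *Cfap45*, inside the doublet, by 1.004 ± 0.18 (adjusted p = 0.00064) and *Tubb4b* by 0.87 ± 0.18 (adjusted p = 0.0025). Club markers rose at the same time (5 of 8, median 1.21), with *Scgb1a1* higher by 1.34 ± 0.35 (adjusted p = 0.017), and 3 of 6 tested club markers also rose in *Scgb1a1*-low cells (median 0.40). Without P7 normoxic mouse 3, 95 genes differed between P14 and P7, and without P7 normoxic mouse 2, 204.

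The response was set beside that of club cells in 26 mice with at least 10 cells of both types (11 normoxic and 15 hyperoxic). The effect of hyperoxia differed for 4 of 6130 genes (0.0653%; 0.0489% with a higher effect in ciliated cells). The count was 15 with *Scgb1a1*-low ciliated cells (0.269%), 30 with at least 5 cells of each type per mouse and 48 without the filter on low counts. At an adjusted p under 0.05 in these mice, 20 of 34 tested NRF2 list members rose in ciliated cells (median 0.71) and 16 of 30 in club cells (median 0.58), and none fell in either, beside 6.15% and 3.82% of all genes that rose and 5.83% and 3.35% that fell. The median difference between the effects was 0.07 over 32 members. *Gpx2* rose by 1.36 ± 0.19 in ciliated and 1.34 ± 0.14 in club cells on the log2 scale (difference 0.10 ± 0.23, adjusted p = 0.95), and *Sod2* by 0.43 ± 0.09 and 0.42 ± 0.11 (difference −0.01 ± 0.12, adjusted p = 0.999). *Nupr1* rose by 1.52 ± 0.19 and 1.09 ± 0.23, a difference of 0.47 ± 0.22 (adjusted p = 0.50). The *4933434E20Rik* RNA fell by 1.49 ± 0.17 in ciliated cells and was at −0.38 ± 0.20 in club cells, a difference of −1.19 ± 0.24 (adjusted p = 0.030). *Sec14l3*, a lipid transfer protein, was at −0.16 ± 0.13 in ciliated cells and fell by 0.88 ± 0.15 in club cells (difference 0.70 ± 0.12, adjusted p = 0.011). It is on the list of other airway cilia genes, of which 4 of 10 tested fell in club cells, as did both tested ciliated markers, *Ccdc153* (−2.31 ± 0.56, adjusted p = 0.0089) and *Dynlrb2* (−1.57 ± 0.46, adjusted p = 0.035). The part of this RNA in the differences between the cell types was not tested. *Npw*, a neuropeptide gene, rose by 0.62 ± 0.18 in ciliated cells and fell by 1.03 ± 0.30 in club cells (difference 1.63 ± 0.34, adjusted p = 0.039). *Igfbp2* rose by 0.70 ± 0.20 in ciliated cells of these mice (adjusted p = 0.019) and was too low in club cells to be tested there. *Cdkn1a*, at 0.60 ± 0.11 and 1.74 ± 0.30, differed when *Scgb1a1*-low ciliated cells were used (−1.70, adjusted p = 0.0055) and not with all ciliated cells (−1.28, adjusted p = 0.071).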

How the data were processed

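MULTI-seq 10x 3' libraries were aligned to mm10 with Cell Ranger 3.0.2 by the authors, who assigned cells to mice with deMULTIplex and labelled cell types with Seurat. The deposited values were whole UMI counts per gene and cell (unit: counts), with cell type, age, oxygen and mouse in a cell table, and sample barcode counts deposited per cell. The percent of mitochondrial UMIs was also deposited by the authors. A mouse was 1 pool and 1 sample barcode.

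UMI counts of ciliated cells were summed per mouse (at least 10 cells), scaled by TMM after filterByExpr, and tested with edgeR 4.0.16 (R 4.3.3). Effects at single ages, ages in normoxia and the difference of effects shared 1 fit over the 6 groups. The effect over all ages came from a separate fit of oxygen and age. The comparison with club cells came from a fit with a term for each mouse. Standard errors are the log2 fold change over the root of F. CPM of single mice use TMM-scaled totals. Shares and medians were compared by two-sided exact permutation tests (NumPy 2.4.6). Shares over mice of all pools were adjusted over 9 comparisons. Median and mean UMIs per cell were compared for oxygen alone and adjusted over the ages. The steps were tested on simulated data. DESeq2 1.42.0, other filters, the pool as block and left-out mice were alternatives.

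Members and lists were chosen with earlier results of these data known. Named genes were the 4 markers, *Sod2* and *Nos2*, the 12 changed genes with the largest rise and fall (6 for a single age, P7 or a difference of effects) at an average log2 CPM of 5 or more, and in each list the 3 highest and the 5 with the smallest p. *Reg3g* and *Mcidas*, and *Gclc* and *Gpx2* outside the comparisons for which the rule gave them, were chosen after their values were seen. Promoters came from RefSeq (GRCm38.p6), and other sequences were not used here.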

Additional observations from a re-analysis of the deposited data

Results flagged for a closer look

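Of 228 groups of mice tested for a value standing apart by Dixon's criterion, 24 had one, and chance gives about 1 in 20. In normoxic P3 mice these were mouse 1 for *Nos2* (27.6 CPM), *Cdkn1c* (549) and *Muc5b* (41.4), mouse 5 for *Nqo1* (34.1) and mouse 6 for *Ifitm1* (919). In hyperoxic P3 mice they were mouse 1 for *Srxn1* (32.8 CPM) and mouse 2 for *Muc5b* (59.0). Normoxic P7 mice stood apart for *Lcn2* (146), *Chia1* (258) and *Txnip* (1008) in mouse 1, *4933434E20Rik* (916) in mouse 3, *Klf2* (296) in mouse 4 and *Nos2* (135) in mouse 6. Hyperoxic P7 mice did so for *Chia1* (48.9) in mouse 2, *Lrrc23* (145) in mouse 3 and *Muc5b* (113) in mouse 4. In normoxic P14 mice the values were 32540 median UMIs per ciliated cell and 139 CPM of *Spink5* in mouse 3, 226 of *Egr3* in mouse 4, and 499 of *Gclc* and 509 of *Gpx2* in mouse 6. In hyperoxic P14 mice they were 323 of *Cbr3* and 1645 of *Prdx6* in mouse 4 and 107 of *Ccno* in mouse 6.

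By the interaction test the effect of oxygen was unequal at P14 and P3 (edgeR, log2 scale) for *Igfbp2* (1.56), *Usp18* (1.38), *Slc39a4* (1.28), *Gm19935* (1.21), *Fuom* (1.21) and *Efcab1* (1.13), which were higher at P14. It was lower at P14 for *Slc16a11* (−2.32), *Plk2* (−2.30), *Egr3* (−2.15), *Aox3* (−1.84), *Pdlim2* (−1.72) and *Prdx6* (−1.70). Their adjusted p-values ran from 0.0029 to 0.047. Between ciliated and club cells of the same mice the effect differed for *Igfbp2* (4.13), *Npw* (1.63), *Sec14l3* (0.70) and *4933434E20Rik* (−1.19). The *Igfbp2* value depends on the prior count, since club cells held too few of its UMIs to be tested, and is not a bound.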

How the results depend on the processing

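Using *Scgb1a1*-low cells, a choice made after the data were seen that leaves fewer cells, mice and genes, gave 548 changed genes over all ages, 3 at P3, 128 at P7, 284 at P14, 0 for P14 against P7 (edgeR, 434 at an unadjusted p under 0.05) and 48 for P14 against P3 in normoxia, 8 for the difference of effects and 15 against club cells. Counted next were passing results of the markers, *Sod2*, *Nos2*, the largest changes and 34 genes measured by mouse. Other list members were not counted. Of these results, 51 kept direction and side of the threshold in *Scgb1a1*-low cells, 93 kept direction only, and 7 turned. The 7 were *Cd36* (−1.53) and *Sftpa1* (−0.72) for P14 against P3, *Cp* (−0.69), *Myof* (−0.20) and *Nupr1* (−0.16) for P14 against P7, and *Prdx6* at P14 in hyperoxia (0.21) and in the difference of effects (0.046). Drawing 10 cells from every mouse gave 608 changed genes over all ages. With at least 20 cells per mouse P3 gave 68 and the difference of effects 83. DESeq2 gave 65 for the difference of effects. Without the filter on low counts P7 against P3 gave 9, the difference 66 and the club comparison 48, and with at least 5 cells of each type the club comparison gave 30.

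With the pool as replicate block, P3 gave 217 and the difference of effects 67, and no other count of changed genes moved by over 1.5 times. Leaving out 1 P7 mouse gave 253 to 600 changed genes at P7 and 95 to 507 for P14 against P7.

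The difference in median UMIs per cell at P14 passed in *Scgb1a1*-low cells, at 7740 (exact permutation p = 0.0159, 0.0476 when adjusted over the ages). Differences in ciliated share that turned sign did so for oxygen at P7 as a percent of epithelial cells (−1.54), of airway cells (−0.379) or for *Scgb1a1*-low cells (−0.0465). As a percent of airway cells they also turned for oxygen at P14 (−10.2), P14 against P7 in normoxia (3.63), P7 against P3 in hyperoxia (1.97) and P14 against P7 in hyperoxia (−6.22). The multiciliogenesis share turned without thinning for oxygen at P3 (3.97) and P7 (2.08) and for P7 against P3 in hyperoxia (0.105), in *Scgb1a1*-low cells for oxygen at P3 (10.6), P14 against P3 in normoxia (0.199) and in hyperoxia (−1.86), and with 2 UMIs required for P7 against P3 in normoxia (−2.36). The cause of these changes was not tested. Where nothing says that mice of a group came from separate litters, p-values measure the spread between these mice. Depth limits genes with few UMIs, such as *Ccno* and *Mcidas*.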

Other observations

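Ciliated cells at P7 in hyperoxia had more RNA of 5 of 16 tested cell cycle genes, among them *Tyms*, which makes thymidylate (1.98 ± 0.49 on the log2 scale, edgeR adjusted p = 0.0094), and the replication helicase subunits *Mcm3* (1.91 ± 0.54), *Mcm6* (1.94 ± 0.53) and *Mcm7* (1.86 ± 0.46), and none lower, beside 3.4% of all genes that rose. These 4 genes could not be tested in *Scgb1a1*-low cells. Imprinted growth genes were lower at P14 than at P3 in normoxia for 4 of 9 tested members (median −0.67 on the log2 scale), beside 2.63% of all genes, and for none of 6 in *Scgb1a1*-low cells (edgeR, median −0.41).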
